A study of Homo sapiens with 10 samples.

Results

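Kinesins and centromere proteins are the motors and the attachment sites that move chromosomes at cell division, and 50 genes of these families were followed here in cells with a mutated origin recognition complex. They are all genes named on the array whose symbol starts with KIF followed by a digit or C, or with CENP followed by a letter, except those on chromosomes 5 and 16. That makes 50 of 14884 named genes, and 10 further genes with a matching symbol lie on the 2 chromosomes left out. The rule itself used symbols and positions only, but it was set with earlier results of these data known. Where a gene had several probe sets, the one with the highest mean over all arrays stood for it.

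Affymetrix arrays were hybridised with RNA of untreated HCT116 cells, a long-established line from a human colorectal carcinoma, with 2 arrays titled biological replicates for each of 5 lines and 10 arrays in all. The control is the wild-type line (WT). The lines ORC1B14 and ORC1BP32 carry a mutated ORC1, and the lines ORC2B2 and ORC2BP8 carry a mutated ORC2. All 5 share the HCT116 background. ORC1 and ORC2 are subunits of the complex that marks the start sites of DNA replication. Neither the type of mutation nor the number of clones behind a line is stated in the labels, and it is not said whether both arrays of a line came from separate cultures. The p-values therefore measure only the spread between these arrays, which could be a technical spread. No probe set carried ORC1 or ORC2 as its only symbol in the annotation used, so the genotypes were not checked against them.

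Kinesins are ATP-driven motors that walk along microtubules or take them apart. Mitotic kinesins build and focus the spindle, align chromosomes and complete cytokinesis, while transport kinesins carry vesicles, organelles and ciliary cargo and are used by cells at every stage of the cycle. The centromere is marked by nucleosomes that hold the histone variant CENP-A. On it sits the constitutive centromere-associated network, which links DNA to the outer kinetochore and so to microtubules. Its parts include CENP-C, the CENP-O, P, Q and U group and the CENP-H, I, K and M group. They also include the CENP-L and N pair and the CENP-T, W, S and X group. Many genes of the mitotic kinesins and the kinetochore are transcribed mainly late in the cell cycle, through promoters with a CCAAT box and a nearby cell cycle genes homology region (CHR), whose core letters are TTTGAA.

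RefSeq promoters on GRCh38.p14, from 250 bases before to 50 bases after each gene start, were at hand for 40 of the 50 genes, which had 50 promoters because 7 genes have several. Both motifs were searched on both strands, where TTTGAA also reads TTCAAA and CCAAT also reads ATTGG, and a match was counted even if it shared bases with another. The CHR letters TTTGAA occurred in 9 of 11 promoters of mitotic kinesins (81.8%), in 3 of 11 promoters of centromere proteins (27.3%) and in 1 of 26 promoters of transport and cilium kinesins (3.85%). They occurred in 15.2% of all promoters of the same length and in 12.1% of those of genes named on the array. TTTGAA and CCAAT together were found in 72.7% of the mitotic kinesin promoters, 18.2% of the centromere protein promoters, 3.85% of the transport kinesin promoters and 5.9% of all promoters. CCAAT, with or without TTTGAA, was found in 72.7%, 63.6% and 34.6% of the promoters of these 3 groups and in 34.6% of all. Letters typical of E2F sites, TTTCCCGC or TTTGGCGC, were found in 9.09%, 9.09% and 3.85% of the promoters of the 3 groups. That is 1 of 11, 1 of 11 and 1 of 26 promoters, against 2.27% of all. KIF2B and KIF2C were the mitotic kinesins without any of these letters. A match describes the letters only.

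The following 100 bases end just before the gene start and are written 5′ to 3′ on the strand of the gene, with TTTGAA and CCAAT in capitals on either strand. They show the pair of motifs in 4 mitotic kinesins, the CHR letters alone in KIF15 and CENPA, CCAAT alone in CENPU, and neither in CENPO and KIF1C, which had the largest changes of the centromere proteins and of the transport kinesins. The windows are chrX:70290004-70290103 (plus strand) for KIF4A, chr10:92593030-92593129 (plus) for KIF11, chr15:69414249-69414348 (plus) for KIF23 and chr11:28108157-28108256 (minus) for KIF18A. Those of the others are chr3:44761694-44761793 (plus) for KIF15, chr2:26785956-26786055 (plus) for CENPA, chr4:184734097-184734196 (minus) for CENPU, chr2:24793325-24793424 (plus) for CENPO and chr17:4997850-4997949 (plus) for KIF1C.
KIF4A: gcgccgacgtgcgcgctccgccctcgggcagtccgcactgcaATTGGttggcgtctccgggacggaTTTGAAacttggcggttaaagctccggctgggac
KIF11: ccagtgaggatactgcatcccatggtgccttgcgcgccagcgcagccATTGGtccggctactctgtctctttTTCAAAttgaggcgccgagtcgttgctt
KIF23: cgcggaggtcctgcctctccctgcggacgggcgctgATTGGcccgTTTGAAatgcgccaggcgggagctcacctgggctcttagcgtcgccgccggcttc
KIF18A: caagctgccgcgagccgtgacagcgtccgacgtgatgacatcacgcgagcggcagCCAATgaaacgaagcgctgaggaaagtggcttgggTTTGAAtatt
KIF15: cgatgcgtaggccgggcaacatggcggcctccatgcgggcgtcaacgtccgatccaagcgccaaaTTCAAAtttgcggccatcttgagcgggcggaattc
CENPA: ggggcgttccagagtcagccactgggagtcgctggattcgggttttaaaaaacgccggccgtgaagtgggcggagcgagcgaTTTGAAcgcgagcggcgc
CENPU: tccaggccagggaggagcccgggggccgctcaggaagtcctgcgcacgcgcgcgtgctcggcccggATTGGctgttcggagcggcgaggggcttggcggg
CENPO: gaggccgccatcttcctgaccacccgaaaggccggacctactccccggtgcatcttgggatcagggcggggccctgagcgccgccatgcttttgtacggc
KIF1C: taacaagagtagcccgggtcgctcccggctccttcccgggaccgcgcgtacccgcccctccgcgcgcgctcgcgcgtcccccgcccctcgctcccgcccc

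The first base of the CHR letters stood 34 bases before the start in KIF4A, 28 in KIF11, 55 in KIF23 and 10 in KIF18A. The first base of the CCAAT box stood further upstream in each of these 4, at 58, 53, 64 and 45 bases. CENPO holds TTTGAA only after its start, at base 37, outside the window shown. CENPA also holds CCAAT, at 130 and 205 bases before its start, upstream of the window shown.

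Expression is given in log2 units, read as such from the range of the values, so that a difference of 1 is a doubling. Array medians lay between 3.94 and 3.96 in replicate 1 and between 3.87 and 3.89 in replicate 2, so they differed by replicate number. Correlations between arrays were 0.979 to 0.984 within a line and 0.968 to 0.989 between lines. Some arrays of different lines were thus closer to each other than arrays of one line. Of 10 markers of colon epithelium 8 were named, and 7 of these read above the median on every array, while CEACAM5 read below it on every array. The fibroblast markers DCN and LUM, the 2 named of 6, read below the median on every array, between 2.21 and 2.75. Of 6 blood cell markers, CD68 and SPI1 were named, and both read above the median on every array, with a mean of 6.19 to 6.37 in WT, 6.92 to 6.96 in ORC1B14 and 6.09 to 6.83 in the other lines. The part of these levels in the results below was not tested.

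The centromere proteins and the mitotic kinesins stood higher in the mutant lines than in WT as groups, and the transport kinesins did not. In the mean of the 4 mutant lines minus WT, the median change was 0.45 over 11 centromere proteins, 0.32 over 11 mitotic kinesins and -0.03 over 23 transport and cilium kinesins, against 0.04 over all 10797 genes tested. Changes were above 0 for 10 of 11 centromere proteins, 10 of 11 mitotic kinesins and 10 of 23 transport kinesins, against 55.4% of all genes. After quantile normalization, which moved the median of all genes to 0.07, KIF5C, KIF7 and KIFC2 turned to above 0 as well. Of the 50 genes, 48 passed the filter on dim probe sets and were tested, and KIF25 and KIF6 did not. No single member passed the test in the fit without a replicate block: 0 of 48 had an adjusted p under 0.05 (limma, Benjamini-Hochberg over all genes tested), where 1.02% of all genes did. At an unadjusted p under 0.05, 12 members stood higher and 1 lower (27.1% of the members), where 8.76% of all genes stood higher and 8.51% lower. In RNA of whole cultures, more cells in the phase in which a gene is transcribed and more RNA per cell cannot be told apart.

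**Figure D1:**
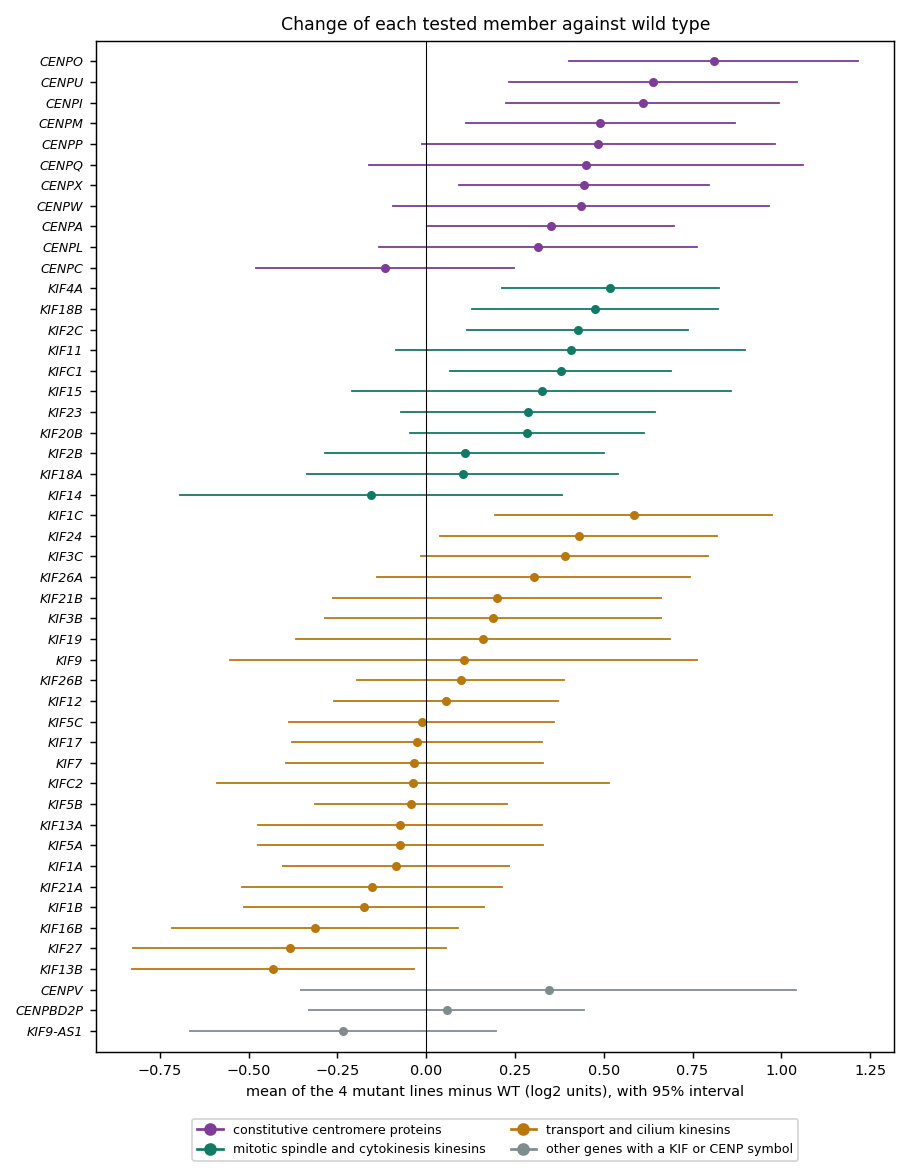
Change of each of the 48 tested genes in the mean of the 4 mutant lines minus WT, in log2 units, as points with 95% intervals, grouped by role and sorted by size. Among the centromere proteins (purple) all but CENPC and among the mitotic kinesins (green) all but KIF14 lie right of 0, while the transport and cilium kinesins (orange) run from -0.43 to 0.58.

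The median of the centromere proteins was 0.51 in ORC1B14 and 0.30 in ORC1BP32, and it was 0.49 in ORC2B2 and 0.56 in ORC2BP8. That of the mitotic kinesins was 0.20, 0.25, 0.35 and 0.31 in the same order, and that of the transport kinesins -0.04, 0.11, 0.01 and -0.07. Seen array by array, against the mean of the WT arrays, the median of the centromere proteins was -0.15 and 0.15 on the WT arrays and 0.24 to 0.72 on the 8 mutant arrays. These ranges did not overlap. That of the mitotic kinesins was -0.08 and 0.08 in WT and 0.02 to 0.50 in the mutant lines, with an overlap made by replicate 1 of ORC1B14 at 0.02. Leaving out each of the 10 arrays in turn, the median of the mean change ranged from 0.25 to 0.63 for the centromere proteins, with the lowest value without WT replicate 1, from 0.23 to 0.42 for the mitotic kinesins and from -0.04 to 0.02 for the transport kinesins.

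**Figure D2:**
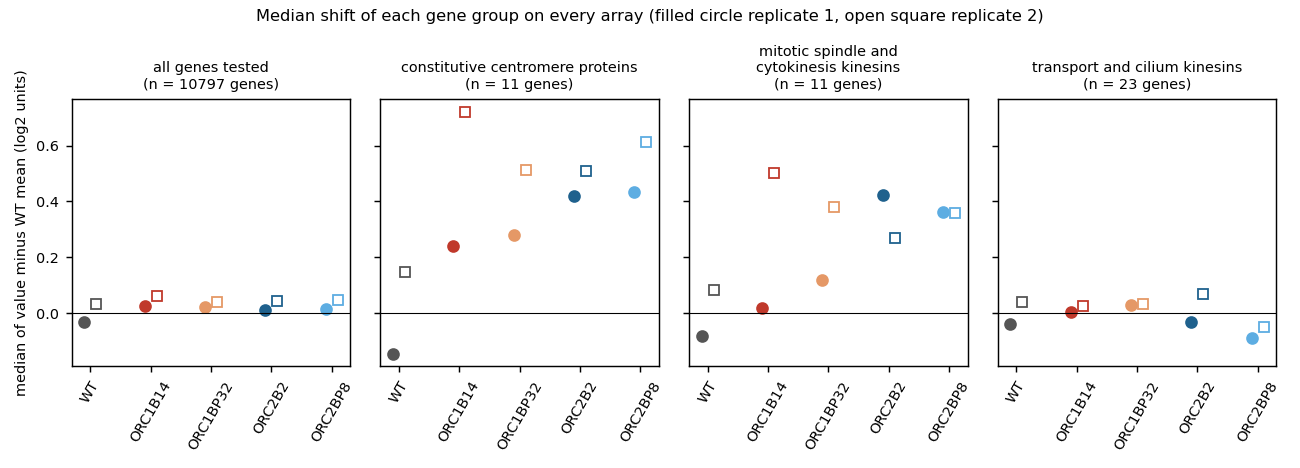
Median over the genes of each group of the value on an array minus the WT mean, in log2 units, with filled circles for replicate 1 and open squares for replicate 2 of each line. The median of the 11 centromere proteins is higher on every mutant array than on both WT arrays. The median of all 10797 genes stays between -0.03 and 0.06 and that of the 23 transport and cilium kinesins between -0.09 and 0.07.

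On 8 members, every mutant array read above both WT arrays. These were CENPI, CENPM, CENPO, CENPU, KIF18B, KIF1C, KIF2C and KIF4A, which makes 16.7% of the members tested, where 7.96% of all genes showed this order. No member (0 of 48) had every mutant array below both WT arrays, an order shown by 6.93% of all genes. In all 4 lines the change was above 0 for 25 members (52.1%), where 31.7% of all genes were, and below 0 for 4, KIF13B, KIF16B, KIF21A and KIF27, where 23.9% of all genes were. CENPI, CENPO and CENPU stood higher at an unadjusted p under 0.05 in each of the 4 lines, an outcome of 1.64% of all genes. The comparisons of the 4 lines share the WT arrays. CENPM, KIF16B, KIF21A and KIF27 were singled out after their values were seen.

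CENPO, which binds CENP-P in the CENP-O, P, Q and U group, had the largest change of all members. Its probe set 16877762 (chromosome 2) read 6.79 and 7.08 in WT, 7.66 and 7.78 in ORC1B14, 7.58 and 7.59 in ORC1BP32, 7.88 and 7.72 in ORC2B2, and 7.53 and 8.21 in ORC2BP8. All 8 mutant arrays were above both WT arrays, and within the mutants replicate 2 of ORC2BP8 was the highest. The mean of the 4 lines stood 0.81 ± 0.18 above WT (SE, limma adjusted p = 0.0614, 2 arrays a line), a 1.75-fold level with an interval of 1.32 to 2.32. The call changed with the processing: the adjusted p was 0.0365 after quantile normalization, at 0.85, and 0.0269 without replicate 1 of ORC2BP8, at 0.89, where ORC2BP8 on its own gave 0.0366, at 1.27. By line the change was 0.78, 0.65, 0.87 and 0.94, each with an SE of 0.23.

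CENPU, the member of the same group that recruits the mitotic kinase PLK1, read 6.55 and 6.54 in WT on probe set 16982024. It read 6.78 and 7.35 in ORC1B14, 7.02 and 7.47 in ORC1BP32, 7.37 and 7.19 in ORC2B2, and 7.15 and 7.10 in ORC2BP8. The WT arrays nearly coincided and all mutant arrays were above them. Its mean change was 0.64 ± 0.18 (SE, limma adjusted p = 0.107). CENPP and CENPQ, the other members of the group, had mean changes of 0.49 ± 0.23 and 0.45 ± 0.28, and their WT arrays lay apart, at 5.71 and 6.18 for CENPP and at 5.85 and 6.77 for CENPQ. The 4 genes of the group thus spanned 0.45 to 0.81.

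CENPI, which with CENP-M belongs to the arm that helps to bring new CENP-A to the centromere, read 7.76 and 7.62 in WT on probe set 17105401 (chromosome X). It read 8.07 and 8.41 in ORC1B14, 8.0 and 8.35 in ORC1BP32, 8.68 and 8.20 in ORC2B2, and 8.37 and 8.30 in ORC2BP8. No mutant array reached down to the WT arrays. The mean change was 0.61 ± 0.17 (SE, limma adjusted p = 0.105), with 0.55, 0.49, 0.75 and 0.65 by line. CENPM changed by 0.49 ± 0.17 (limma adjusted p = 0.177) and CENPL, of the CENP-L and N pair, by 0.32 ± 0.20.

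CENPW, the histone-fold partner of CENP-T, read 6.17 and 6.94 in WT on probe set 17012379, 7.01 and 7.38 in ORC1B14, 6.65 and 7.07 in ORC1BP32, 6.97 and 7.16 in ORC2B2, and 6.51 and 7.16 in ORC2BP8. Replicate 2 was the higher array in every line, and both groups overlapped. Its mean change was 0.44 ± 0.24 (SE, limma adjusted p = 0.384). CENPX, a histone-fold protein that also serves in DNA repair with the Fanconi anaemia pathway, changed by 0.44 ± 0.16 (limma adjusted p = 0.187), at 0.66 in ORC1B14 and 0.72 in ORC2BP8 but 0.04 in ORC1BP32. Its WT arrays read 7.55 and 7.56 and replicate 2 of ORC1BP32 read 7.36.

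The centromeric histone gene CENPA read 7.24 and 7.58 in WT on probe set 16877956, 7.89 and 7.84 in ORC1B14, 7.34 and 7.66 in ORC1BP32, 7.75 and 7.71 in ORC2B2, and 7.85 and 8.05 in ORC2BP8. Replicate 1 of ORC1BP32 lay between the WT arrays, and the other 7 mutant arrays were above both. The mean change was 0.35 ± 0.16 (SE, limma adjusted p = 0.282). CENPC, the protein that reads the CENP-A nucleosome, was the centromere protein below 0, at -0.12 ± 0.16, with -0.25 in ORC1B14 and -0.28 in ORC2BP8 and 0.03 in both of the other lines. CENPC, CENPL, CENPM, CENPP, CENPQ and CENPX, and the grouping into subcomplexes, were taken up after their values were seen.

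**Figure D3:**
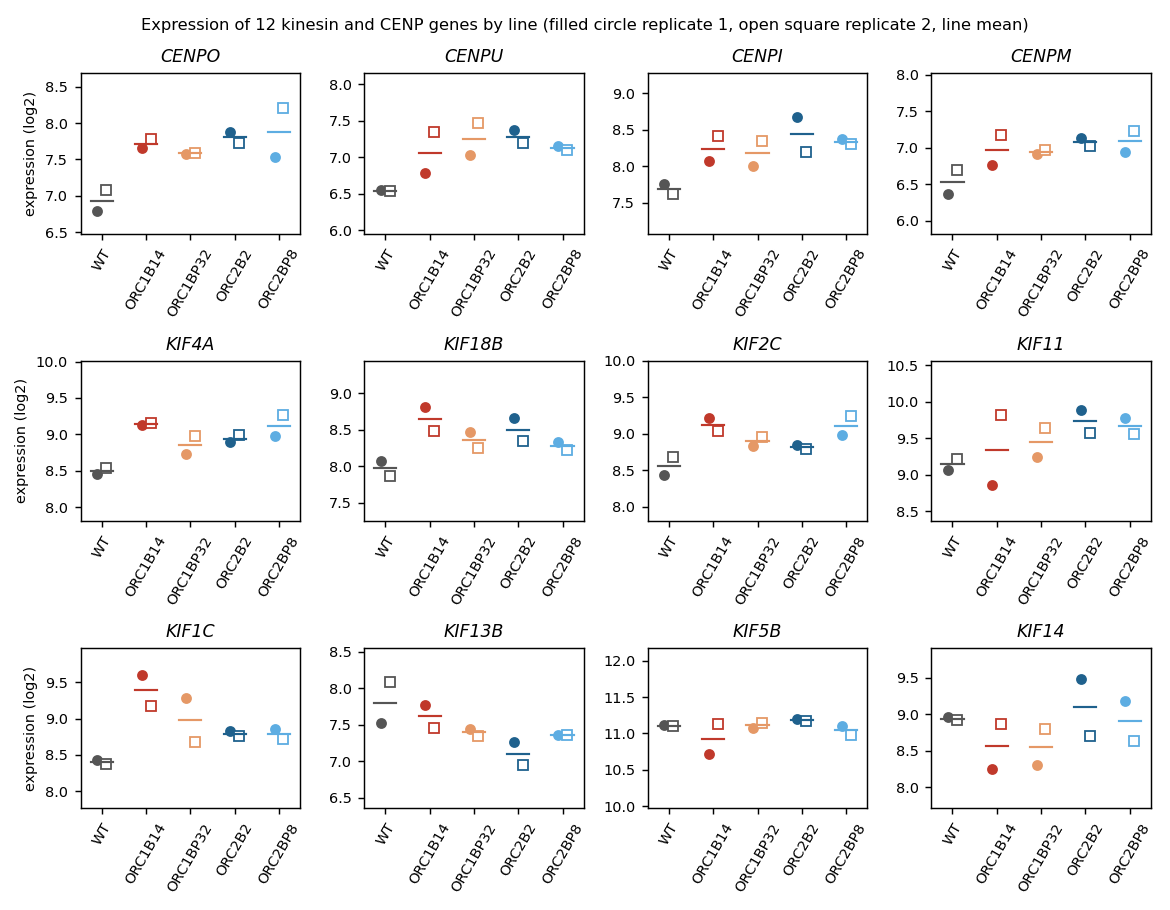
Expression of 12 genes on every array, in log2 units, with filled circles for replicate 1, open squares for replicate 2 and a bar at the mean of each line, each panel spanning 2.2 log2 units. In CENPO, CENPU, CENPI, CENPM, KIF4A, KIF18B, KIF2C and KIF1C no mutant array is as low as the WT arrays, whereas in KIF11, KIF13B, KIF5B and KIF14 the arrays of WT and mutant lines overlap.

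KIF4A, the chromokinesin that moves along chromosome arms and keeps the length of the anaphase spindle, had the largest change of the mitotic kinesins. Probe set 17104484 (chromosome X) read 8.46 and 8.54 in WT, 9.13 and 9.16 in ORC1B14, 8.74 and 8.98 in ORC1BP32, 8.89 and 8.99 in ORC2B2, and 8.98 and 9.26 in ORC2BP8. All mutant arrays were above both WT arrays. The mean change was 0.52 ± 0.14 (SE, limma adjusted p = 0.0899), a 1.43-fold level, with 0.65, 0.36, 0.44 and 0.62 by line. KIF4B, a near-identical copy on chromosome 5 that is not among the 50 genes, changed by 0.67 on its own probe set (limma adjusted p = 0.0632), and how far the probes of either read the other was not tested.

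KIF18B, which shortens astral microtubules at their plus ends, read 8.08 and 7.86 in WT on probe set 16845794, 8.81 and 8.48 in ORC1B14, 8.47 and 8.25 in ORC1BP32, 8.66 and 8.34 in ORC2B2, and 8.33 and 8.22 in ORC2BP8. Each mutant array was above both WT arrays, and replicate 1 was the higher array in every line. Its mean change was 0.48 ± 0.16 (SE, limma adjusted p = 0.153). Its relative KIF18A, which dampens chromosome oscillations at metaphase, had a mean change of 0.10 ± 0.20 (limma adjusted p = 0.835). KIF18A read 8.52 and 8.92 in WT, 8.41 and 8.84 in ORC1B14, 8.76 and 8.93 in ORC1BP32, 9.0 and 8.79 in ORC2B2, and 9.26 and 8.61 in ORC2BP8. For KIF18A the arrays of all lines overlapped, and its interval ran from -0.34 to 0.54.

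KIF2C, also known as MCAK, takes microtubules apart and corrects wrong attachments at the centromere. It read 8.44 and 8.69 in WT on probe set 16663958, 9.22 and 9.03 in ORC1B14, 8.83 and 8.96 in ORC1BP32, 8.85 and 8.80 in ORC2B2, and 8.98 and 9.24 in ORC2BP8. The lowest mutant array, replicate 2 of ORC2B2, was still above the higher WT array. The mean change was 0.43 ± 0.14 (SE, limma adjusted p = 0.153). Its relative KIF2B changed by 0.11 ± 0.18 (limma adjusted p = 0.805), with WT arrays at 4.42 and 4.41 and mutant arrays from 4.21 to 4.85.

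KIFC1, the minus-end motor that clusters spindle poles, read 7.41 and 7.65 in WT on probe set 17007459, 8.18 and 8.03 in ORC1B14, 7.63 and 7.78 in ORC1BP32, 7.90 and 7.96 in ORC2B2, and 7.87 and 7.90 in ORC2BP8. Replicate 1 of ORC1BP32 lay just below the higher WT array. The mean change was 0.38 ± 0.14 (SE, limma adjusted p = 0.202), and the gene's 3 other probe sets gave 0.38, 0.37 and 0.41. These are not taken as independent support. Probe sets 17041352 and 17038792 had the same WT mean of 7.53 as the main probe set, to the digits shown. Probe set 17036071, at 0.41, was dim, with a WT mean of 3.40 that lay below the array medians.

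KIF11, the motor that pushes spindle poles apart, read 9.06 and 9.22 in WT on probe set 16707468, 8.86 and 9.82 in ORC1B14, 9.24 and 9.65 in ORC1BP32, 9.89 and 9.57 in ORC2B2, and 9.78 and 9.55 in ORC2BP8. The arrays of ORC1B14 lay on both sides of the WT arrays. Its mean change was 0.41 ± 0.22 (SE, limma adjusted p = 0.384). KIF15, which backs up KIF11 in spindle assembly, changed by 0.32 ± 0.24 with the same spread in ORC1B14, at 6.50 and 7.49 against 6.73 and 7.13 in WT.

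Of the kinesins of cytokinesis, KIF23, the motor of the centralspindlin complex, read 9.78 and 9.90 in WT on probe set 16802519, 9.86 and 10.42 in ORC1B14, 9.96 and 10.22 in ORC1BP32, 10.30 and 9.97 in ORC2B2, and 10.10 and 10.20 in ORC2BP8. Replicate 1 of ORC1B14 lay between the WT arrays and all others were above. The change was 0.29 ± 0.16 (SE, limma adjusted p = 0.401) and ranged from 0.25 to 0.31 over the lines. KIF20B, which acts in the completion of abscission, read 8.54 and 8.81 in WT on probe set 16707221, 8.65 and 8.89 in ORC1B14, 8.94 and 9.19 in ORC1BP32, 9.10 and 8.94 in ORC2B2, and 9.10 and 8.86 in ORC2BP8. Replicate 1 of ORC1B14 again lay between the WT arrays. Its change was 0.28 ± 0.15 (SE, limma adjusted p = 0.364). KIF14, which recruits citron kinase to the midbody, was the mitotic kinesin below 0, at -0.16 ± 0.24, with -0.38 in both ORC1 lines, 0.16 in ORC2B2 and -0.02 in ORC2BP8. KIF14, KIF15 and KIF2B were taken up after their values were seen.

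KIF1C, a motor of dense-core vesicles and integrin transport, was the transport kinesin with the largest change. Probe set 16830016 read 8.43 and 8.37 in WT, 9.60 and 9.17 in ORC1B14, 9.29 and 8.67 in ORC1BP32, 8.82 and 8.76 in ORC2B2, and 8.85 and 8.72 in ORC2BP8. All mutant arrays were above both WT arrays, and the ORC1 lines held the 3 highest of them as well as the lowest. Its mean change was 0.58 ± 0.18 (SE, limma adjusted p = 0.124), a 1.5-fold level, with 0.98 in ORC1B14, 0.58 in ORC1BP32 and 0.39 in each ORC2 line. In ORC1B14 the limma adjusted p was 0.0827. KIF1B, a relative that carries synaptic vesicle precursors and mitochondria, changed by -0.17 ± 0.15 (limma adjusted p = 0.605). KIF1B read 8.44 and 8.71 in WT on probe set 16658802, 8.17 and 8.46 in ORC1B14, 8.15 and 8.48 in ORC1BP32, 8.35 and 8.41 in ORC2B2, and 8.59 and 8.58 in ORC2BP8. Both ORC2B2 arrays of KIF1B were below both WT arrays, and the arrays of the other mutant lines overlapped with WT. Its second probe set, dim with a WT mean of 3.89, gave 0.07.

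KIF13B, which transports vesicles with human discs large, was the member lowest relative to WT. It read 7.52 and 8.08 in WT on probe set 17075922, 7.77 and 7.46 in ORC1B14, 7.44 and 7.35 in ORC1BP32, 7.26 and 6.95 in ORC2B2, and 7.36 and 7.35 in ORC2BP8. All mutant arrays but replicate 1 of ORC1B14 were below both WT arrays. The mean change was -0.43 ± 0.18 (SE, limma adjusted p = 0.254), and it was -0.06 within replicate 1 and -0.80 within replicate 2. KIF27 and KIF16B, a cilium kinesin and an endosome motor taken up after their values were seen, changed by -0.38 ± 0.20 and -0.31 ± 0.18.

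KIF5B, the ubiquitous heavy chain of conventional kinesin, read 11.11 and 11.10 in WT on probe set 16713085, 10.72 and 11.13 in ORC1B14, 11.08 and 11.14 in ORC1BP32, 11.20 and 11.18 in ORC2B2, and 11.11 and 10.98 in ORC2BP8. Its change was -0.04 ± 0.12 (SE, limma adjusted p = 0.896), with an interval of -0.31 to 0.23, and all lines but ORC2B2 reached down to the WT arrays. KIF3B, a motor subunit of the kinesin-2 that drives intraflagellar transport, read 8.03 and 8.28 in WT on probe set 16912535, 8.16 and 8.64 in ORC1B14, 8.22 and 8.79 in ORC1BP32, 7.94 and 8.24 in ORC2B2, and 8.09 and 8.67 in ORC2BP8. Replicate 2 was the higher array in each line, and the change was 0.19 ± 0.21 (SE, limma adjusted p = 0.708). KIF7, the ciliary kinesin of Hedgehog signalling, read 5.73 and 5.42 in WT on probe set 16813148, 5.62 and 5.33 in ORC1B14, 5.89 and 5.58 in ORC1BP32, 5.46 and 5.47 in ORC2B2, and 5.55 and 5.41 in ORC2BP8. Its change of -0.03 ± 0.16 was within the spread of the arrays (limma adjusted p = 0.939). Under at least 1 alternative the direction of KIF5B, KIF7 and KIF18A turned.

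Besides KIF1C, the transport and cilium kinesin higher at an unadjusted p under 0.05 in the mean of the lines was KIF24, which restrains cilium assembly at the mother centriole. KIF24 changed by 0.43 ± 0.18 (limma adjusted p = 0.248), with WT arrays at 5.70 and 6.16 and mutant arrays from 6.07 to 6.68. KIF3C, another kinesin-2 motor subunit, changed by 0.39 ± 0.18, with replicate 1 of ORC1B14 highest at 7.23 against 6.23 and 6.55 in WT. Both were taken up after their values were seen. The remaining tested genes of this group changed by between -0.15 and 0.30.

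Of the 3 members outside these roles, CENPV, a protein of the centromere periphery and the midzone, read 7.34 and 7.76 in WT on probe set 16841768, 7.58 and 8.43 in ORC1B14, 7.20 and 7.88 in ORC1BP32, 7.48 and 7.95 in ORC2B2, and 7.75 and 8.89 in ORC2BP8. Replicate 2 was the higher array in each line, and the change was 0.34 ± 0.32 (SE, limma adjusted p = 0.623). KIF9-AS1, an antisense RNA at the KIF9 locus, read 4.78 and 4.54 in WT on probe set 16940332, 4.25 and 4.07 in ORC1B14, 3.86 and 4.65 in ORC1BP32, 4.64 and 4.69 in ORC2B2, and 4.55 and 4.68 in ORC2BP8. Both ORC1B14 arrays were below the other lines save for replicate 1 of ORC1BP32, and the mean change was -0.24 ± 0.20 (SE, limma adjusted p = 0.584). KIF9 itself changed by 0.11 ± 0.30. CENPBD2P, a pseudogene related to the CENP-B DNA-binding domain, changed by 0.06 ± 0.18.

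Line by line, 0 of 48 members passed the adjusted test in any line, where the share of all genes that did was 0.583% for ORC1B14, 0.0185% for ORC1BP32, 0.333% for ORC2B2 and 0.935% for ORC2BP8 (limma). At an unadjusted p under 0.05, ORC1B14 had 11 members higher and KIF16B lower, where 8.15% of all genes were higher and 8.81% lower. ORC1BP32 had 4 higher and 0 lower, where 5.28% were higher and 4.82% lower. ORC2B2 had 8 higher and KIF13B lower, where 5.82% were higher and 5.87% lower, and ORC2BP8 had 10 higher and KIF5A lower, where 7.41% were higher and 7.15% lower. These unadjusted counts rested on few arrays. The share of all genes with an array left out is not given, so the changes below are not read as particular to the members. Without WT replicate 1 the counts of 12, 4, 9 and 11 became 4, 2, 5 and 5, and the 13 of the mean of the lines became 7. Without replicate 1 or replicate 2 of the line itself they became 2 in both cases for ORC1BP32 and 3 and 4 for ORC2B2, and without replicate 2 of ORC2BP8 that line had 5.

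The mutant lines were also set against each other. Between the ORC1 and the ORC2 lines, 0 of 48 members passed the adjusted test, where 0.0463% of all genes did, and 2 had an unadjusted p under 0.05, where 6.96% of all genes had. KIF1C stood 0.39 higher in the ORC1 lines and KIF9-AS1 0.43 higher in the ORC2 lines (limma adjusted p = 0.640 for both). Between ORC1B14 and ORC1BP32 no member passed the adjusted test (0.0185% of all genes did), and CENPBD2P, CENPX and KIFC1 were higher in ORC1B14 at an unadjusted p under 0.05, where 5.32% of all genes differed. Between ORC2B2 and ORC2BP8 no member passed (0.222% did), and the neuronal heavy chains KIF5A and KIF5C were higher in ORC2B2 at an unadjusted p under 0.05, where 5.46% of all genes differed. KIF5A read 5.81 and 6.39 in ORC2B2 and 5.29 and 5.34 in ORC2BP8, which do not overlap, and 5.89 and 5.82 in WT. The test of any difference among the 5 lines passed 0 members, where it passed 0.658% of all genes, and 6 had an unadjusted p under 0.05, namely CENPI, CENPO, CENPX, KIF1C, KIF2C and KIF4A, where 11.8% of all genes had. Leaving out single arrays moved these unadjusted counts too, in fits for which the share of all genes is not given.

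Replicate numbers moved with several members, and with genes over the whole table. Replicate 2 read above replicate 1 in all 5 lines for 10 of 48 members, where 16% of all genes did. Among these members were CENPC, CENPP, CENPQ and CENPW. Replicate 2 read below in all 5 for KIF18B, KIF1C and KIFC2, where 7.09% of all genes did. The shares of the members were thus near those of all genes. Compared within each number, the mean of the 4 lines stood above WT in both numbers for 28 members (58.3%), where 39.9% of all genes did, and below in both for 11, where 31.2% did. CENPO stood 0.88 above WT within replicate 1 and 0.74 within replicate 2, CENPU 0.54 and 0.74, CENPI 0.52 and 0.70, KIF4A 0.47 and 0.56 and KIF1C 0.71 and 0.46. CENPQ, at 0.69 and 0.21, differed more between the numbers.

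**Figure D4:**
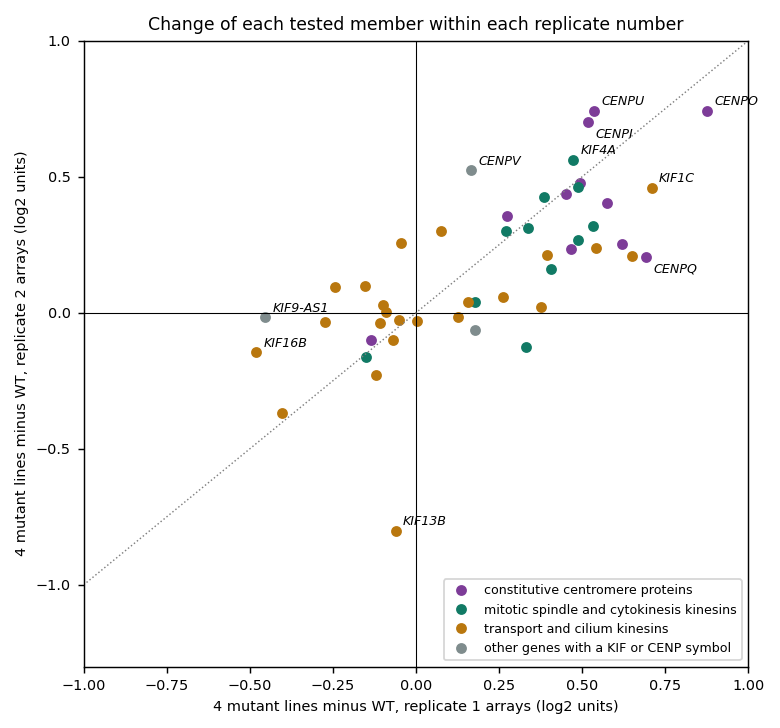
Mean of the 4 mutant lines minus WT for each of the 48 tested genes within the replicate 1 arrays (horizontal) and within the replicate 2 arrays (vertical), in log2 units, with a dotted line of equal values. CENPO, CENPU, CENPI, KIF4A and KIF1C lie in the upper right, and KIF13B lies far from the dotted line at -0.06 and -0.80.

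Neighbouring genes on the chromosome did not move alike for all members. The median change of up to 20 neighbouring tested genes was 0.01 for CENPO, -0.06 for CENPU, -0.10 for CENPI, 0.11 for KIF4A and 0.11 for KIF1C. It was 0.22 for KIF18B, 0.19 for KIFC1, 0.19 for KIF24 and 0.17 for CENPX, so these stood among neighbours that were higher as well, and the part of this in their change was not tested. CENPW at -0.38 and CENPQ at -0.31 stood above neighbours that were lower.

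Other genes of the kinetochore, of mitosis and of microtubule transport were read from 10 lists. Of 152 listed genes, 95 were named off chromosomes 5 and 16 and tested, and their median change was 0.22 with 80 of 95 above 0, where 55.4% of all genes were. In the mean of the 4 lines 5 rose and 1 fell (limma adjusted p under 0.05, where 0.417% of all genes rose and 0.602% fell), and at an unadjusted p under 0.05, 32 stood higher and 2 lower, where 8.76% of all genes stood higher and 8.51% lower. The 5 that rose were the transcription factor MYBL2, by 1.28 ± 0.24 (limma adjusted p = 0.0391), E2F1, by 0.91 (0.0366), FOXM1, by 0.76 (0.0361), the kinetochore protein SKA3, by 0.84 (0.0294), and the spindle protein SPAG5, by 0.71 (0.0373). MYBL2, FOXM1 and E2F1 are known as activators of cell cycle genes, and whether they act on the members here was not tested. Each of these 5 lost its call without either WT array, without either ORC1BP32 array and without some other arrays, with adjusted p up to 0.333, and kept its direction.

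The gene that fell was KIFAP3, the adaptor that binds the motors KIF3A and KIF3B in kinesin-2. KIFAP3 read 8.35 and 8.58 in WT, 7.74 and 7.89 in ORC1B14, 7.90 and 8.05 in ORC1BP32, 7.49 and 7.72 in ORC2B2, and 7.43 and 7.14 in ORC2BP8. Every mutant array was below both WT arrays. The mean of the lines fell by 0.79 ± 0.15 (SE, limma adjusted p = 0.0407) and ORC2BP8 by 1.18 ± 0.19 (limma adjusted p = 0.0193). In the mean of the lines its partner KIF3A, on chromosome 5, stood at -0.21 and its partner KIF3B at 0.19 ± 0.21. KIF3C stood at 0.39 ± 0.18. The call on the mean of the lines was lost under 9 of 17 alternatives, among them each WT array left out and no filter on dim probe sets, at a change between -0.91 and -0.67.

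List by list, the chromosomal passenger complex and shugoshins had a median of 0.42 over 6 genes, with BIRC5 at 0.76 and CDCA8 at 0.66, and the factors that deposit CENP-A had 0.47 over 5 genes, with OIP5 at 0.70 and the CENP-A chaperone HJURP at 0.48. The mitotic cyclins, CDK1 and their transcription factors had 0.29 over 20 genes, the spindle and cytokinesis proteins 0.30 over 17, and the spindle checkpoint 0.30 over 8, with TTK at 0.52 and MAD2L1 at 0.44. The KMN network of the outer kinetochore had 0.22 over 3, with ZWINT at 1.03 and NDC80 at 0.22. The anaphase-promoting complex and separase had 0.14 over 15, with ESPL1 at 0.66 and UBE2S at 0.62, and condensin and cohesin 0.05 over 9, with CDCA5 at 0.84 and SMC2 at 0.45. The microtubule motors and adaptors of transport were near all genes, at 0.08 over 6 genes of dynein and dynactin, with BICD2 at 0.22 and NDEL1 at -0.16, and at 0.01 over 6 kinesin light chains and adaptors, with KLC2 at 0.27. Only the 5 genes that rose and KIFAP3 passed the adjusted test among these 95 in the mean of the lines.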

How the data were processed

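Log2 expression values, 1 per probe set and array, were used as the authors deposited them for 10 arrays of 53617 probe sets. Affymetrix Expression Console, without a version, is the tool listed per the submitters' processing notes. The normalization and genome build were not given in the sources used here, and the log base was read from the values. Probe sets were named through the platform's annotation (16098 with 1 symbol, 37519 without a single symbol and so unnamed here). A gene was tested if its brightest probe set reached the array median on at least 2 arrays (10797 genes). Line means were fitted in R 4.3.3 with limma 3.58.1 (empirical Bayes with an intensity trend, 5 residual and 5.83 prior degrees of freedom). The two-sided p-values were adjusted by Benjamini-Hochberg over all genes tested. The fit was checked on simulated data with independent noise for each gene and array. That check could not show what an effect of the replicate number does to the p-values. Depth is unknown for arrays; their number limits the precision: the SE of one line minus WT was 0.155 to 0.400 over the members. The members and gene lists were chosen with earlier results of these data known. Members named with every array were the 2 with the largest change in each role plus 18 always listed. Of these 18, CENPE, CENPF, CENPB and CENPJ (4) had no probe set named in this way and are not analysed here. In pathway lists the 2 largest were named. Alternatives covered the replicate block, normalization, filters, probe set choice, the variance prior and leaving out each array. Promoter sequences are from RefSeq.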

Additional observations from a re-analysis of the deposited data

How the results depend on the processing

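With the replicate number as a block, 3 members passed the adjusted test in ORC1B14 (KIF18B, KIF1C and KIF4A), 3 in ORC2BP8 (CENPO, CENPP and KIF4A) and 5 in the mean of the 4 lines (CENPO, CENPU, KIF18B, KIF1C and KIF4A), where 4.59%, 3.72% and 6.57% of all genes did (limma). The adjusted p of CENPO in the mean of the lines was then 0.0195. The unadjusted counts became 21 in ORC1B14, 10 in ORC1BP32, 14 in ORC2B2, 8 between the ORC1 lines and 14 among the 5 lines, where 24.2%, 15.5%, 16.9%, 8.84% and 20.5% of all genes passed in the same fits. The replicate block was not adopted, because the labels do not say that a number pairs arrays. The replicate differences of 2 lines correlated at 0.0812 to 0.568, over 0.1 in 9 of 10 pairs of lines. All were positive, a hint of pairing from the data, not the design. A fit without the block leaves such an effect in the spread between arrays.

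After quantile normalization 1 member passed in the mean of the 4 lines (CENPO), and 8 had an unadjusted p under 0.05 in ORC1BP32. That scaling moved the median of all genes from 0.04 to 0.07 and that of the members from 0.19 to 0.24. The stricter filter left 1 unadjusted member between ORC1 and ORC2 lines, with 42 members tested. With the matching genes of chromosomes 5 and 16 included, an alternative chosen after seeing the data that tests 58 genes, the unadjusted counts were 14 in ORC2B2, 7 between ORC1 and ORC2 lines, 7 between the ORC1 lines and 13 among the 5 lines. The shares of all genes under these settings, and with single arrays left out, are not given. These counts are therefore not read as results about the members. The causes were not tested.

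Leaving out each array in turn, with a lone array assumed to vary like the other lines, members passing ranged from 0 to 1 in ORC2BP8 and in the mean of the 4 lines (CENPO without ORC2BP8 replicate 1) and were 0 elsewhere. Unadjusted counts ranged from 4 to 15 in ORC1B14, 2 to 4 in ORC1BP32, 3 to 11 in ORC2B2, 5 to 13 in ORC2BP8, 7 to 17 in the mean of the lines, 0 to 5 between ORC1 and ORC2 lines, 0 to 10 between the ORC1 lines, 0 to 3 between the ORC2 lines and 2 to 12 among the 5 lines. Of 1780 values of named members under the alternatives, 62 moved by more than the spread, 13 passed the test anew and 46 changed sign, 6 of them in the mean of the lines (KIF18A, KIF5B and KIF7).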

Other observations

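The 10 genes with a kinesin or CENP symbol on chromosomes 5 and 16 were left out of the groups above, and all 10 were tested in the same fit. In the mean of the 4 mutant lines minus WT, KIF20A, a motor of cytokinesis, changed by 0.61 (limma adjusted p = 0.0708), and KIF22, a chromokinesin, by 0.53 (limma adjusted p = 0.134). Of the centromere proteins, CENPN, which reads the CENP-A nucleosome together with CENPL, changed by 0.61 (limma adjusted p = 0.0601), CENPH, a partner of CENPI, by 0.48, CENPK by -0.06 and CENPT by -0.10. KIF2A, KIF3A and KIFC3, which serve microtubule turnover, ciliary transport and cell junctions, changed by -0.22, -0.21 and -0.26. No gene of these 10 (0) passed the adjusted test by limma in this comparison, where 1.02% of all genes did, and 5 stood higher at an unadjusted p under 0.05, namely CENPH, CENPN, KIF20A, KIF22 and KIF4B, where 8.76% of all genes did.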
